A study of Mus musculus with 6 samples.

Results

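The 31 genes described here carry out mitochondrial fatty acid oxidation and the uptake, storage and release of neutral lipid. They are rows of an FPKM table (fragment counts scaled to transcript length and library depth) of 54532 gene IDs. Members were chosen by mouse gene symbol, and each symbol had 1 ID. The oxidation set holds 15 genes, the storage and uptake set 8, and the remaining 8 are acyl-CoA synthetases and transcriptional regulators. Of the 31, 28 reached a mean of 1 FPKM over the libraries and were tested. Fabp4, Ppara and Ppargc1a did not.

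RNA came from CD11c-sorted cells, labelled dendritic cells, out of melanomas in C57Bl/6 mice harvested on day 28. All tumours grew from a BRAFV600E melanoma line that had been kept under puromycin. The implanted cells carried either an active Gli2 mutation (Gli2CA, 3 libraries) or a non-targeted control (NTC, 3 libraries), so both groups shared the background of that line. Gli2 was altered in the tumour cells and not in the sorted cells. The labels give no age, and do not say whether each library came from its own mouse or whether the lines were single clones. The p-values therefore measure the spread between these samples, which may be technical.

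Fatty acids enter a cell from lipoproteins or by transfer and are bound by carrier proteins, then activated to acyl-CoA. The acyl groups are either carried into mitochondria on carnitine and shortened by beta-oxidation, or esterified to triglyceride and kept in lipid droplets coated by perilipins. PPAR nuclear receptors sense fatty acids and induce genes of both routes. In dendritic cells within tumours, lipid accumulation has been studied as a feature of poorly stimulatory cells, and oxidation as a feature of tolerant ones.

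Depth came to about 18780000 to 29130000 fragments per library, recovered from the steps between low FPKM values. After thinning to 18770000 fragments, 11359 genes in NTC 1 and 11569 in NTC 3 had a read, against 13962 to 15175 in the other 4 libraries. NTC 1 and NTC 3 thus stood apart, and the larger differences are given with and without one or both of them. Without both, the only control is NTC 2, which itself stood out in fibroblast markers. Such values show how far a difference depends on the control libraries, not that it is robust. The 6 dendritic cell markers summed to 64715 to 90503 FPKM in NTC and 50347 to 61754 in Gli2CA (1 of 6 with the higher mean in Gli2CA), with none at 0. Cd74, H2-Ab1 and Cst3 made up most of that sum. Flt3 overlapped, at 39.5 to 79.9 FPKM in NTC and 30.5 to 57.0 in Gli2CA. Zbtb46 overlapped too, at 2.33 to 47.6 against 11.3 to 20.9 FPKM. Itgax was the higher one in Gli2CA, at 118 to 224 FPKM against 62.4 to 117 in NTC. Markers of the cDC2 subset overlapped, at 1197.5 to 2005 FPKM in Gli2CA against 1729 to 2328 in NTC (1 of 5 higher in Gli2CA). Those of mature dendritic cells overlapped too, at 203 to 408 against 384 to 882 FPKM (0 of 4). Markers of the cDC1 subset of dendritic cells were lower in Gli2CA, at 634 to 765 against 1015 to 1938 FPKM (0 of 5 with the higher mean), and those of T cells at 549 to 820 against 927 to 1724 FPKM (0 of 5), with none at 0 throughout. The 6 monocyte markers summed to 604 to 965 FPKM in NTC and 2172 to 2794 in Gli2CA (5 of 6 higher in Gli2CA, Fcnb at 0 in every library). The 10 macrophage markers overlapped, at 6398 to 9048 against 4723 to 9218 FPKM (7 of 10 with the higher mean in Gli2CA, none at 0 throughout). The 6 fibroblast markers summed to 3361 FPKM in NTC 2, against 1.41 to 28.6 in the other NTC libraries and 60.0 to 327 in Gli2CA. Of the 6 adipocyte markers, 5 (Adipoq, Plin1, Cidec, Lep and Adrb3) were at 0 in every library, and Cfd had 4.16 FPKM in NTC 2 alone. Melanocytic markers summed to 0 in NTC and 12.1 to 22.7 FPKM in Gli2CA, with Mlana, Tyr, Tyrp1 and Dct at 0 throughout. Sox10 made up most of that sum, at 19.8, 12.1 and 18.4 FPKM, and Pmel had 2.88 FPKM in Gli2CA 1 alone. The summed dendritic cell, cDC1, T cell, monocyte and melanocytic markers did not overlap between the groups, and their part in the differences below was not tested.

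The comparison asks whether genes of lipid oxidation and lipid storage differed between CD11c-sorted cells of Gli2CA and NTC tumours. With limma on log2(FPKM + 1), 0 of 28 members passed an adjusted p of 0.05, as did 0 of all 12266 genes tested (0.0%). At an unadjusted p under 0.05, 2 members were higher in Gli2CA (Ppard and Plin2) and 0 were lower, where 10.6% of all genes reached that level, 7.82% higher and 2.81% lower. The libraries of the groups did not overlap in 3 members, with Ppard and Plin3 higher and Acadl lower. Ppard reached the mean of 1 FPKM only through Gli2CA, so its direction was partly set by that filter. Among all genes 16.6% did not overlap, and 10.9% were higher and 5.79% lower. The mean on the log2 scale was higher in Gli2CA in 19 of 28 members and in 59.7% of all genes. The members' shares of calls lay at or below those of all genes, and their share of higher means slightly above. That share rested on NTC 1, since without it 14 of 28 members had the higher mean. The median log2 difference of all genes was then 0.074. Pparg, counted among the higher means, also passed the filter only through Gli2CA. In bulk RNA of this kind, fewer cells of a type and less RNA per cell cannot be told apart.

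**Figure D1:**
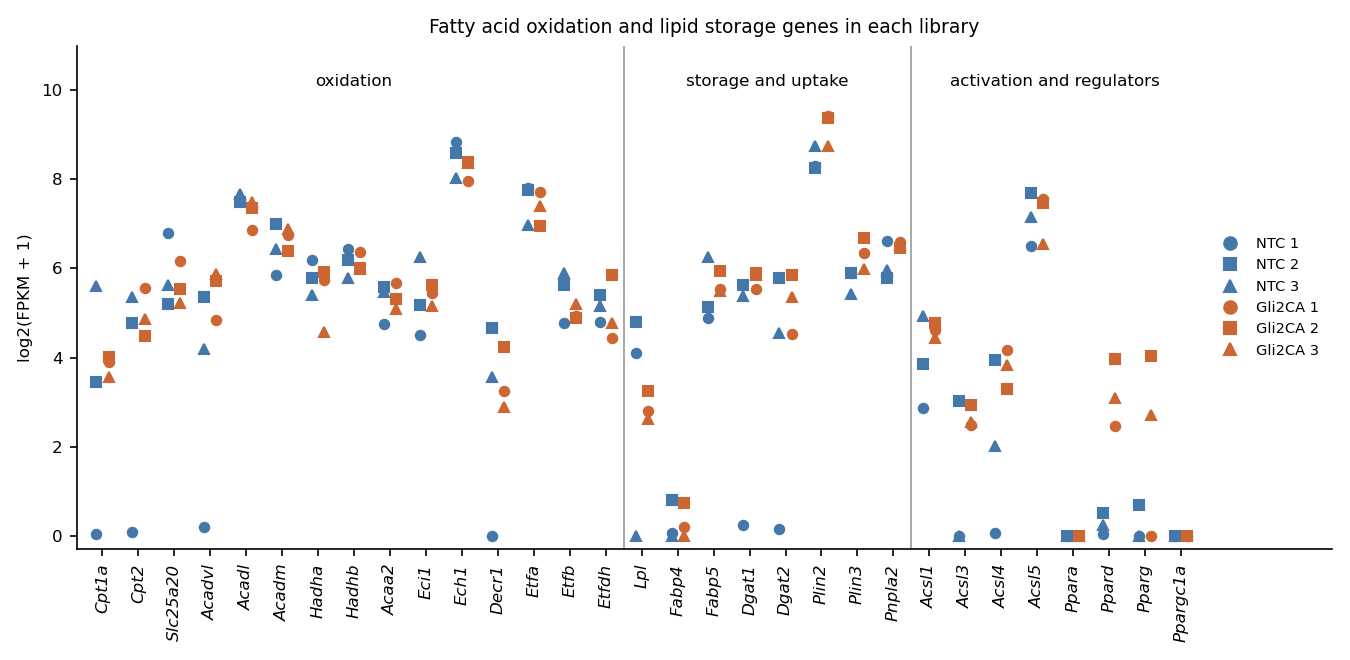
Level of each of the 31 genes in each library, as log2(FPKM + 1), with NTC in blue to the left and Gli2CA in orange to the right of each gene. Plin2 and Ech1 sit at the top, and 10 of the tested genes lie near 0 in NTC 1, among them Cpt1a, Cpt2, Acadvl, Decr1, Dgat1 and Dgat2.

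Levels per transcript length spanned a wide range. Plin2 was the most abundant member, at the 98.1 percentile of the genes tested by its mean over the 6 libraries. Ech1, Etfa, Acadl and Acsl5 followed, at the 97.0, 93.9, 93.6 and 92.4 percentile. At the other end Ppard lay at 28.4, Acsl3 at 25.1 and Pparg at 23.3. NTC 1 held the lowest value of 17 of the 28 tested members. In that library 10 members were under 1 FPKM, or 35.7% of those tested, beside 38.0% of all genes tested. In NTC 3 the members under 1 FPKM were Lpl, Acsl3, Ppard and Pparg (14.3% against 32.1% of all genes). Low values of members in NTC 1 were therefore about as frequent as those of other genes there.

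Entry into mitochondria begins with Cpt1a, the outer membrane carnitine palmitoyltransferase that controls the rate of oxidation (chromosome 19, 3322334 to 3385733, GRCm38). Cpt1a had 0.0248, 9.93 and 48.0 FPKM in NTC 1, NTC 2 and NTC 3 and 13.9, 15.2 and 10.8 FPKM in Gli2CA 1, Gli2CA 2 and Gli2CA 3. The NTC libraries thus lay on either side of a narrow Gli2CA group, and the value in NTC 1 rested on 1 recovered read, against 1646 in NTC 3. Its log2 difference, Gli2CA minus NTC, was 0.79 ± 1.30 (SE, limma adjusted p = 0.835), and -0.71 without NTC 1. Cpt2, the inner membrane partner, had 0.0545, 26.3 and 40.2 FPKM in NTC and 46.0, 21.4 and 28.1 FPKM in Gli2CA. It too had 1 read in NTC 1, and its difference was 1.56 with that library and -0.10 without it. Slc25a20, the carnitine-acylcarnitine carrier between these enzymes, ran the other way in NTC 1. It had 110, 35.6 and 48.2 FPKM in NTC and 71.1, 45.7 and 36.2 FPKM in Gli2CA, so NTC 1 held the highest value and the groups overlapped.

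Acyl-CoA dehydrogenases take the first step of each oxidation cycle. Acadl, the long-chain enzyme, was the oxidation gene whose groups did not overlap. It had 182, 178 and 203 FPKM in NTC and 115, 162 and 178 FPKM in Gli2CA, where the highest Gli2CA value, 177.84, lay just under the lowest NTC value, 177.90. Its log2 difference was -0.33 ± 0.27 (SE, limma adjusted p = 0.680), with all 3 Gli2CA libraries under the NTC libraries. Acadm, the medium-chain enzyme, had 56.9, 126 and 85.8 FPKM in NTC and 106, 83.0 and 118 FPKM in Gli2CA, with overlap. Acadvl, the very long-chain enzyme, had 0.143, 40.0 and 17.4 FPKM in NTC and 27.6, 51.3 and 57.8 FPKM in Gli2CA. The Acadvl difference of 2.23 ± 1.22 (SE, limma adjusted p = 0.531) became 0.70 without NTC 1 and 0.12 without both NTC 1 and NTC 3. Acadvl shares 42.9% of its annotated exon bases with Dvl2 on the opposite strand, and since it is not given whether counting used strand, its level is uncertain.

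The mitochondrial trifunctional protein, which completes the cycle on long chains, is made of Hadha and Hadhb products. Their genes lie 85 bases apart on chromosome 5 and point away from each other. Hadhb had 85.1, 72.3 and 53.8 FPKM in NTC and 81.6, 63.8 and 62.5 FPKM in Gli2CA. Its log2 difference was -0.0081 ± 0.35 (SE, limma adjusted p = 0.996), close to 0. Hadha had 71.7, 53.9 and 41.3 FPKM in NTC and 52.0, 59.8 and 22.7 FPKM in Gli2CA. The ratio of Hadha to Hadhb was 0.842, 0.746 and 0.768 in NTC and 0.637, 0.938 and 0.363 in Gli2CA, so that Gli2CA 3 had the lowest share of Hadha. Acaa2, the thiolase of shorter chains, ranged from 26.0 to 49.7 FPKM over the 6 libraries, with overlap.

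The promoter window of Hadhb is shown because it spans the gap between these subunit genes and reaches into both. RefSeq gives it on GRCm38.p6 as chr5:30155003-30155302 on the plus strand, 250 bases before to 50 after the start of Hadhb. Capitals mark the core of the hypoxia response element, ACGTG or GCGTG on either strand. They also mark the nuclear receptor hexamer AGGTCA on either strand, which is not in this window.
Hadhb: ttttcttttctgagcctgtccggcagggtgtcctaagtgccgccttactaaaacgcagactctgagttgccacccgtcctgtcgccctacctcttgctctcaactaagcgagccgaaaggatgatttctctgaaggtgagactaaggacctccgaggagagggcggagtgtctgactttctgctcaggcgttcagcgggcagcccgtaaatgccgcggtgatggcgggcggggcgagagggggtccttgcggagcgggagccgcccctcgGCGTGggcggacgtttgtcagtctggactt

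Auxiliary enzymes that prepare unsaturated chains for oxidation did not separate the groups either. Ech1, an enoyl-CoA isomerase, was the most abundant oxidation gene, at 456, 381 and 259 FPKM in NTC and 249, 332 and 331 FPKM in Gli2CA. Eci1, another isomerase, had 21.7, 35.3 and 74.8 FPKM in NTC and 42.6, 48.1 and 34.8 FPKM in Gli2CA. Decr1, the 2,4-dienoyl-CoA reductase, had 0, 24.4 and 10.9 FPKM in NTC and 8.55, 17.8 and 6.44 FPKM in Gli2CA. No read of Decr1 was recovered in NTC 1, and its difference went from 0.71 to -0.66 without that library.

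Electrons from the dehydrogenases pass to the Etfa and Etfb flavoprotein and then to ubiquinone through Etfdh. All 3 had the lower mean in Gli2CA on the log2 scale, with differences of -0.17, -0.43 and -0.10, and all 3 overlapped (limma adjusted p of 0.732 to 0.954). Etfa had 224, 217 and 125 FPKM in NTC and 209, 123 and 168 FPKM in Gli2CA. Etfb had 26.6, 48.5 and 58.5 FPKM in NTC and 29.4, 28.4 and 36.0 FPKM in Gli2CA, and 53.0% of its exon bases are also annotated to Gm45233, which was at 0. Etfdh had 26.7, 41.3 and 34.8 FPKM in NTC and 20.5, 56.3 and 26.5 FPKM in Gli2CA, and its mean FPKM was nearly equal, 34.3 against 34.4.

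**Figure D2:**
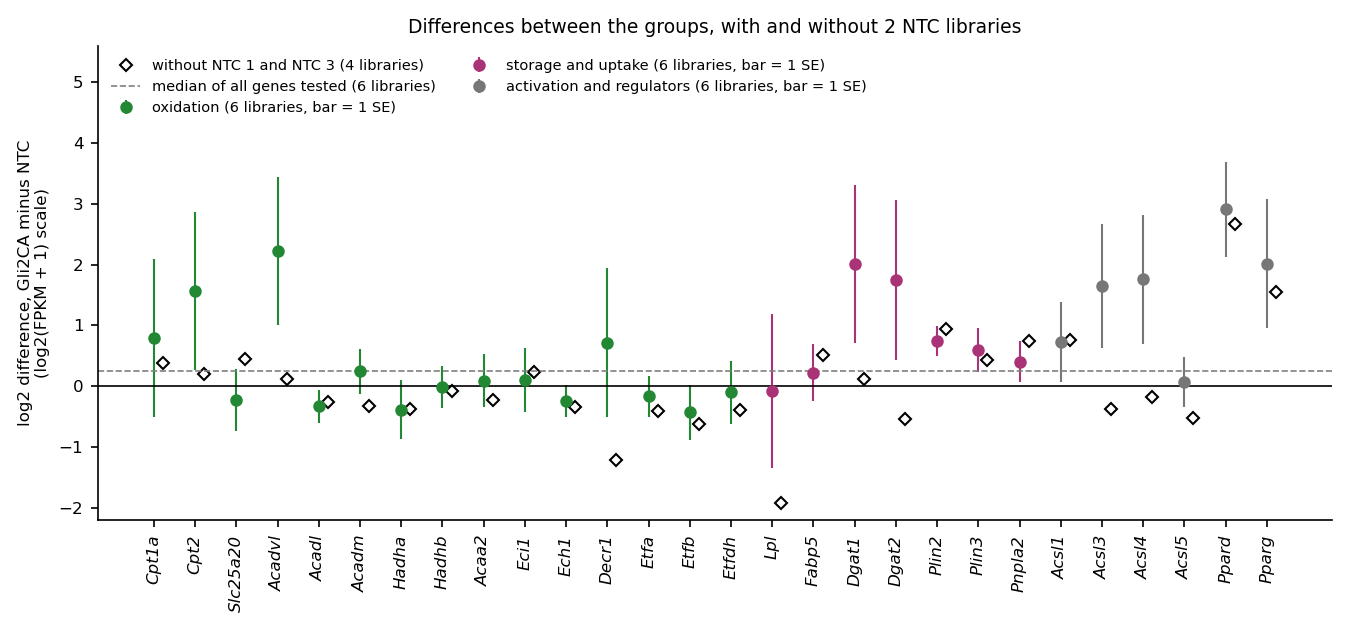
Gli2CA minus NTC for each of the 28 tested genes, as a difference of log2(FPKM + 1), with 1 SE (limma). The dashed line at 0.25 is the median of all genes tested, and open diamonds are the differences without NTC 1 and NTC 3, which move most for Acadvl, Decr1, Dgat1, Dgat2, Lpl, Acsl3 and Acsl4.

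Over the 15 oxidation genes, 7 had the higher and 8 the lower mean in Gli2CA on the log2 scale. Their log2 differences had a median of -0.0081, beside 0.25 for all genes tested. The set median ranged from -0.25 to 0.060 over the alternatives, the lowest being without both NTC 1 and NTC 3. No oxidation gene reached an unadjusted limma p under 0.05.

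The storage and uptake set is headed by Plin2, the perilipin that coats lipid droplets in most cells (chromosome 4, 86648386 to 86670060). Plin2 had 314, 302 and 431 FPKM in NTC and 684, 657 and 428 FPKM in Gli2CA. Gli2CA 1 and Gli2CA 2 lay far above the NTC libraries, while Gli2CA 3 lay at the level of NTC 3, the highest of its group. Means were 349 ± 71.2 FPKM in NTC and 590 ± 141 in Gli2CA (SD, n = 3 each). The log2 difference was 0.74 ± 0.25 (SE, limma adjusted p = 0.354), and its unadjusted p is among those under 0.05 counted above. It stayed between 0.62 and 0.96 over 18 alternatives, with limma adjusted p of 0.215 to 0.815. With NTC 1 and NTC 3 left out, Plin2 differed by 0.93, against NTC 2 alone, which held its lowest value. Plin3, a perilipin that joins nascent droplets from the cytosol, had 58.4, 59.0 and 42.3 FPKM in NTC and 80.0, 102 and 62.2 FPKM in Gli2CA. Every Gli2CA library was above every NTC library, with Gli2CA 3 nearest to them. The Plin3 difference was 0.59 ± 0.36 (SE, limma adjusted p = 0.576). With NTC 1 and NTC 3 left out it was 0.43.

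The Plin2 promoter is shown because Plin2 is the most abundant member and has the smallest p of the storage set. RefSeq places it at chr4:86670010-86670309 on the minus strand of GRCm38.p6. Its capitals are TGACCT, the complement strand's reading of AGGTCA, and 3 matches to the hypoxia core, of which 2 overlap in a single CACGTG.
Plin2: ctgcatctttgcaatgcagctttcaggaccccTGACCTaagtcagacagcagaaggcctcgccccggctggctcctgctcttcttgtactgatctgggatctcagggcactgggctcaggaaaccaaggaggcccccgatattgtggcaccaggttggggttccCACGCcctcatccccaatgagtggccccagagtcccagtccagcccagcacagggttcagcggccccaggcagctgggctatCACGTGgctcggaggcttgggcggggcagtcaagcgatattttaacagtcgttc

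Pnpla2 encodes the adipose triglyceride lipase, which opens the breakdown of stored triglyceride. It had 97.2, 54.1 and 61.6 FPKM in NTC and 95.9, 87.1 and 91.5 FPKM in Gli2CA. The Gli2CA libraries were close together and above NTC 2 and NTC 3, but NTC 1 was the highest of all. Its difference was 0.41 ± 0.34 (SE, limma adjusted p = 0.680), 0.65 without NTC 1 and 0.75 without both NTC 1 and NTC 3. Dgat1 and Dgat2 are unrelated enzymes that each catalyse the last step of triglyceride synthesis. Dgat1 had 0.192, 48.8 and 40.6 FPKM in NTC and 45.5, 58.4 and 56.8 FPKM in Gli2CA. Dgat2 had 0.118, 54.2 and 22.4 FPKM in NTC and 22.1, 56.5 and 39.8 FPKM in Gli2CA. Their values in NTC 1 rested on 3 and 2 reads. The log2 differences of 2.004 and 1.74 (limma adjusted p of 0.604 and 0.670) became 0.25 and 0.076 without NTC 1, and 0.12 and -0.54 without both NTC 1 and NTC 3.

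Uptake genes showed no common direction. Lpl, the secreted lipase that frees fatty acids from lipoproteins, had 16.1, 27.0 and 0 FPKM in NTC and 6.01, 8.46 and 5.20 FPKM in Gli2CA. NTC 1 and NTC 2 lay above every Gli2CA library, whereas no read was recovered in NTC 3 and 1990 were in NTC 2. The Lpl mean was thus lower in Gli2CA, 6.56 ± 1.69 against 14.4 ± 13.6 FPKM (SD, n = 3 each), while its log2 difference was -0.07 ± 1.26 (SE, limma adjusted p = 0.987). NTC 2 is also the library with 3361 FPKM of fibroblast markers, and their part in its Lpl level was not tested. Fabp5, a cytosolic fatty acid carrier, had 28.8, 34.2 and 75.9 FPKM in NTC and 45.3, 60.2 and 44.3 FPKM in Gli2CA, with overlap. Its neighbour Fabp4, the carrier best known from adipocytes and macrophages, lies 187480 bases away on chromosome 3. It stayed under 1 FPKM in all libraries, at 0.0415, 0.756 and 0 FPKM in NTC and 0.147, 0.662 and 0 FPKM in Gli2CA. With adipocyte markers at or near 0, little RNA of that cell type was detected.

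**Figure D3:**
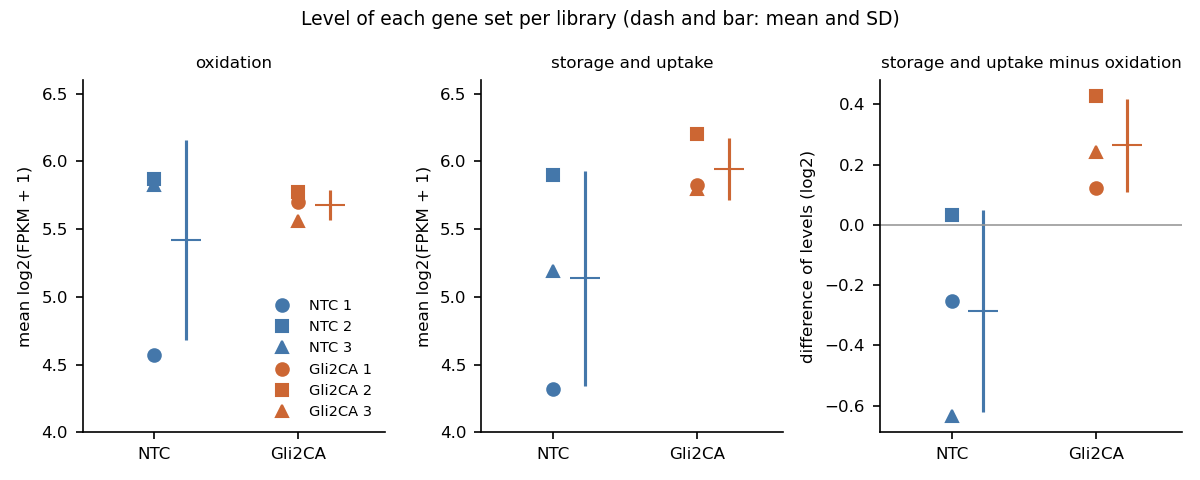
Mean log2(FPKM + 1) of the 15 oxidation genes and the 7 tested storage and uptake genes in each library, and the second minus the first. Dash and bar give the mean and SD of 3 libraries. In the right panel the Gli2CA libraries lie between 0.12 and 0.43 and the NTC libraries between -0.64 and 0.03.

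Set against each other, storage and uptake genes stood higher relative to oxidation genes in the Gli2CA libraries. The level of the oxidation set, its mean log2(FPKM + 1), was 4.57, 5.87 and 5.83 in NTC and 5.70, 5.78 and 5.56 in Gli2CA. Without NTC 1 the oxidation level was thus slightly higher in NTC than in Gli2CA. The storage and uptake level was 4.32, 5.90 and 5.19 in NTC and 5.82, 6.20 and 5.80 in Gli2CA, with NTC 2 among the Gli2CA libraries. Storage and uptake minus oxidation came to -0.25, 0.032 and -0.64 in NTC and 0.12, 0.43 and 0.24 in Gli2CA, means of -0.29 ± 0.34 and 0.26 ± 0.15 (SD, n = 3 each). The groups did not overlap in this measure, although NTC 2 and Gli2CA 1 were separated by less than the spread within either group. The difference of 0.55 between the groups was 0.57 without NTC 1, 0.37 without NTC 3 and 0.23 without both. Of the 7 storage and uptake genes, 6 had the higher mean in Gli2CA on the log2 scale, and their median log2 difference was 0.59, beside 0.25 for all genes. No test was made of these set levels, since the members were chosen with results of these libraries known.

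Activation by acyl-CoA synthetases precedes both routes. Acsl5 was the most abundant of the family at 89.4, 207 and 141 FPKM in NTC and 187, 176 and 92.0 FPKM in Gli2CA, with overlap. Acsl1 had 6.31, 13.4 and 29.7 FPKM in NTC and 23.7, 26.5 and 20.6 FPKM in Gli2CA, a difference of 0.73 ± 0.66 (SE, limma adjusted p = 0.693) that was 0.22 without NTC 1. Acsl4, which prefers arachidonic acid, had 0.0516, 14.4 and 3.04 FPKM in NTC and 16.9, 8.78 and 13.4 FPKM in Gli2CA. Acsl3, which is found on nascent droplets, had 0, 7.18 and 0 FPKM in NTC and 4.59, 6.68 and 4.86 FPKM in Gli2CA. In both Acsl3 and Acsl4, NTC 2 was within or above the Gli2CA range and the other NTC libraries were below it. Differences of 1.65 for Acsl3 and 1.76 for Acsl4 (limma adjusted p of 0.581 and 0.576) became -0.37 and -0.18 without both NTC 1 and NTC 3.

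Among the regulators, Ppard had the smallest p of all members. Ppard encodes PPAR-delta, a fatty acid receptor that induces oxidation genes and Plin2 in several tissues (chromosome 17, 28232700 to 28301474). It had 0.0314, 0.423 and 0.178 FPKM in NTC and 4.55, 14.6 and 7.49 FPKM in Gli2CA. These values rested on 1, 20 and 7 reads in NTC and on 225, 655 and 324 in Gli2CA. Ppard reached the mean of 1 FPKM for testing only through Gli2CA, with means of 0.211 in NTC and 8.87 in Gli2CA. Its higher value was thus partly set by that filter. Every Gli2CA library was above every NTC library, including NTC 2. The log2 difference was 2.91 ± 0.78 (SE, limma adjusted p = 0.231). Over the alternatives it ranged from 1.61 after quantile normalization to 5.63 on recovered reads, with limma adjusted p from 0.1001 to 0.567. Leaving out NTC 1 and NTC 3 gave 2.66. Monocyte markers were higher in the same 3 libraries, at 2172 to 2794 against 604 to 965 FPKM, and their part in the Ppard difference was not tested. Pparg, the receptor that drives lipid storage, had 0, 0.614 and 0 FPKM in NTC and 0, 15.4 and 5.51 FPKM in Gli2CA. Gli2CA 1 had no recovered read of Pparg, so the groups overlapped (log2 difference 2.01 ± 1.06 SE, limma adjusted p = 0.519, and 1.55 with NTC 1 and NTC 3 left out). Pparg too passed the filter only through Gli2CA. Ppara, the main PPAR of oxidation in liver, and Ppargc1a, a coactivator of mitochondrial genes, had no recovered read in any library.

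The Ppard promoter is given for the same reason, as the member with the smallest p. RefSeq places it at chr17:28232504-28232803 on the plus strand, and its capitals are 2 matches to the hypoxia core, with no AGGTCA.
Ppard: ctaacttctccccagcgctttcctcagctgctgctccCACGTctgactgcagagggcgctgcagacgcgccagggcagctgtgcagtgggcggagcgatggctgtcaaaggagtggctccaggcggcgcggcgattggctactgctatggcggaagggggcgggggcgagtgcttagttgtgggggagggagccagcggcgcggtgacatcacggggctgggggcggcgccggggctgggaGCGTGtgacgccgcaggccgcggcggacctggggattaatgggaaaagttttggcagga

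The RefSeq promoter windows searched were 27 of 300 bases, for 24 of the 31 genes. No window was available for Acaa2, Decr1, Dgat1, Dgat2, Fabp4, Fabp5 and Lpl. Of the storage and uptake set, only Plin2, Plin3 and Pnpla2 were thus searched. AGGTCA, on either strand, was found in 6 of the 27 (22.2%), belonging to Acadm, Acadvl, Cpt1a, Plin2 and Pparg, and in 16.3% of all 32851 windows. The direct repeat of AGGTCA with 1 base between, bound by PPAR with its partner RXR, was in 0 of 27 and in 0.0396% of all windows. The hypoxia core was in 15 of 27 (55.6%), against 43.8% of all windows. These are matches of letters within the windows and do not show binding.

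A further 100 genes of lipid metabolism in 7 lists were examined, of which 71 were tested. None passed. At an unadjusted limma p under 0.05, 8 were higher in Gli2CA and 3 lower, where 7.82% of all genes were higher and 2.81% lower. The mean on the log2 scale was higher in 42 of 71, close to the 59.7% of all genes. The median log2 difference was -0.02 for 13 further mitochondrial oxidation genes, 0.52 for 12 peroxisomal, 1.33 for 7 uptake, -0.02 for 12 storage, 0.79 for 6 lipolysis and 0.52 for 12 fatty acid synthesis genes, and 0.10 for 9 PPAR partners and targets, beside 0.25 for all genes. Several of these medians rested on single libraries. The uptake median was 0.15 without NTC 1, the storage median 0.69 without NTC 3, and the peroxisomal median -0.26 with both left out.

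Regulators of lipolysis around Pnpla2 were among the genes with an unadjusted p under 0.05. Abhd5, the coactivator of Pnpla2, had 0.110, 15.8 and 0 FPKM in NTC and 26.6, 22.1 and 35.4 FPKM in Gli2CA. The groups did not overlap, and the log2 difference of 3.43 ± 1.16 (SE, limma adjusted p = 0.346) was 0.76 without both NTC 1 and NTC 3. Hilpda, a hypoxia-induced inhibitor of the same lipase, had 44.1, 45.4 and 14.1 FPKM in NTC and 131, 186 and 38.9 FPKM in Gli2CA. As with Plin2, Gli2CA 1 and Gli2CA 2 were high and Gli2CA 3 was among the NTC libraries (log2 difference 1.66 ± 0.69 SE, limma adjusted p = 0.446). Leaving out NTC 1 and NTC 3 gave 1.103 for Hilpda. G0s2, another inhibitor, was at 0, 2.31 and 0 FPKM in NTC and 5.28, 0 and 29.8 FPKM in Gli2CA, with overlap. Lipe, the hormone-sensitive lipase, had 22.8, 23.5 and 49.9 FPKM in NTC and 13.9, 8.92 and 23.7 FPKM in Gli2CA, also with overlap. Abhd6, a monoacylglycerol lipase, had the lower values in Gli2CA without overlap, 1.01, 0.0203 and 6.30 against 8.81, 7.05 and 21.4 FPKM (limma adjusted p = 0.467). Mgll, the main monoacylglycerol lipase, was at 0 in every library.

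Esterification genes beyond the set included Soat1, which makes cholesteryl esters for droplets. Soat1 had 2.74, 49.3 and 2.52 FPKM in NTC and 98.6, 82.5 and 67.4 FPKM in Gli2CA, all above NTC. Its log2 difference of 3.25 ± 0.99 (SE, limma adjusted p = 0.295) was 0.72 without both NTC 1 and NTC 3. Lpin2, a phosphatidate phosphatase on the route to triglyceride, had 0.0286, 9.63 and 2.53 FPKM in NTC and 28.7, 27.6 and 19.0 FPKM in Gli2CA (limma adjusted p = 0.330). Its log2 difference was 2.93, or 1.28 with NTC 1 and NTC 3 left out. Plin1 and Cidec, droplet proteins of adipocytes, were at 0 throughout. Cd36, a membrane fatty acid transporter, had 51.6, 24.0 and 66.6 FPKM in NTC and 21.2, 66.3 and 14.6 FPKM in Gli2CA, with overlap. Lipa, the lysosomal acid lipase, overlapped too, at 15.6 to 49.3 FPKM in NTC and 23.6 to 28.4 in Gli2CA. Lrp1, an endocytic lipoprotein receptor, had 34.7, 39.6 and 2.66 FPKM in NTC and 158, 63.3 and 49.3 FPKM in Gli2CA, without overlap (limma adjusted p = 0.463). Its log2 difference went from 2.20 to 0.98 when NTC 1 and NTC 3 were left out.

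**Figure D4:**
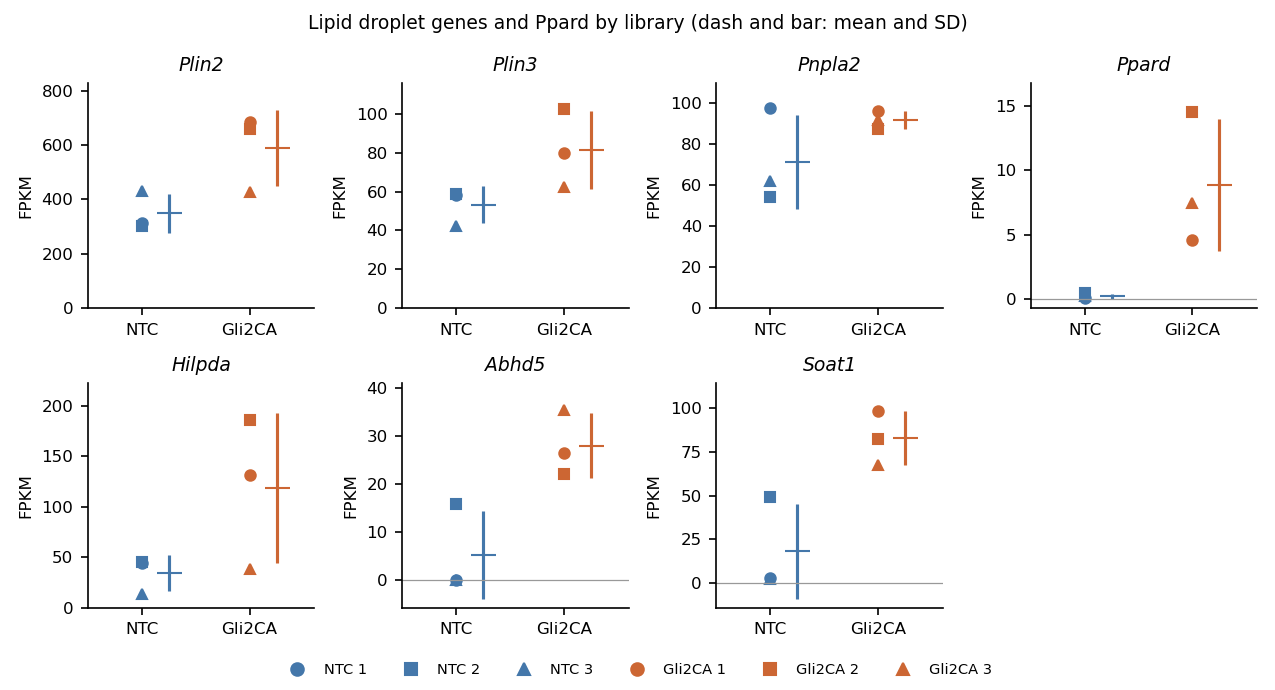
FPKM in each library for Ppard and 6 genes of droplets and lipolysis, with mean and SD of 3 libraries. Gli2CA lies wholly above NTC for Plin3, Ppard, Abhd5 and Soat1, while Plin2, Pnpla2 and Hilpda overlap. The 7 were picked for display after their values were seen.

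Oxidation outside the set is represented here by mitochondrial genes. Crat, the carnitine acetyltransferase, had 1.04, 12.8 and 0.0313 FPKM in NTC and 17.1, 22.9 and 15.0 FPKM in Gli2CA (limma adjusted p = 0.438), a log2 difference that went from 2.63 to 0.46 when NTC 1 and NTC 3 were left out. Acads, the short-chain dehydrogenase, had 14.8 to 34.5 FPKM in NTC and 11.6 to 18.6 in Gli2CA, and Hadh, the short-chain hydroxyacyl-CoA dehydrogenase, had 0.0384 to 8.51 against 2.16 to 6.13 FPKM. Both overlapped.

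For fatty acid synthesis, Me1, the malic enzyme that supplies NADPH, had 0.0540, 0.982 and 0.0219 FPKM in NTC and 21.0, 6.12 and 13.4 FPKM in Gli2CA. Me1 entered the test only through Gli2CA, so its direction was partly set by the filter. Every Gli2CA library was above every NTC library, and the log2 difference was 3.35 ± 0.84 (SE, limma adjusted p = 0.221). It was 2.73 when NTC 1 and NTC 3 were left out. Elovl1, an elongase of very long chains, was lower in Gli2CA without overlap, 155, 177 and 167 against 347, 199 and 265 FPKM (limma adjusted p = 0.443). With NTC 1 and NTC 3 left out, its log2 difference of -0.66 was -0.26. Fasn, the fatty acid synthase, and the desaturase genes Scd1 and Scd2 overlapped, with means of 12.5, 9.44 and 25.8 FPKM in Gli2CA and 12.9, 1.55 and 17.3 in NTC. Of the PPAR targets, Pdk4 was at 0 in every library and Angptl4 at 0 in NTC 1, NTC 3 and Gli2CA 2. Ucp2, a mitochondrial carrier, was abundant at 1438 to 2013 FPKM in NTC and 1643 to 2040 in Gli2CA. Crat, Lrp1, Lpin2, Abhd6, Elovl1 and Me1 were named after their values were seen, for an unadjusted limma p under 0.05.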

How the data were processed

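The deposited values are FPKM, computed by the authors for 54532 gene IDs in each library separately. No source used here names the aligner, the counter, the genome build or the use of strand. Per the labels' protocols, CD11c-positive cells were sorted from digested tumours and poly-T selected RNA was made into libraries with random hexamer priming. Columns were matched to samples by description. Libraries bear the number of their titles.

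Gene IDs were given symbols from a lookup table, and coordinates and mean transcript lengths from GENCODE M21 on GRCm38, which need not be the authors' annotation. FPKM times length gave whole multiples of 1 step per library for 96.6 to 98.0% of low values within 0.05 of a read. Those steps gave the read numbers.

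Differences were fitted with limma (version 3.58.1, under R 4.3.3) to log2(FPKM + 1), group being the only term, with a variance trend. Two-sided p-values were adjusted by Benjamini and Hochberg across all 12266 genes whose mean reached 1 FPKM. Among the named genes, Ppard, Pparg, G0s2 and Me1 reached it only through Gli2CA, and for these the filter favoured a higher value in Gli2CA. The scale understates changes of low genes. Exact permutation of 3 against 3 libraries gives no p smaller than 0.1 and was not used. All members were named, and other genes by a fixed set or an unadjusted p under 0.05. The members, lists and alternatives were chosen with earlier results of these data known. Alternatives were other pseudocounts, filters, scalings, variance models, library weights, a replicate block, voom on recovered reads, other set memberships, and leaving out libraries. Figures used Python 3.11.15 and matplotlib 3.10.9. Some items are not reported here.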

Additional observations from a re-analysis of the deposited data

How the results depend on the processing

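No member passed an adjusted p of 0.05 under any of 18 alternatives. Of 501 member results under them, 460 kept their direction and 41 changed it, and so did 14 of 394 for other named genes. The 11 members that kept it in every alternative run were Acadvl, Acadl, Ech1, Etfb, Dgat1, Plin2, Plin3, Pnpla2, Acsl1, Ppard and Pparg. For Ppard and Pparg the filter favoured that direction, so keeping it is no support for it. Acadvl and Dgat1 kept it at only 0.12 each without both NTC 1 and NTC 3. Medians of the 7 further lists moved beyond the replicate spread in 12 of 126 cases. Under quantile normalization 21 of all genes passed, against 0. Members at an unadjusted p under 0.05 numbered 2, and 1 with a minimum mean of 5 FPKM, with quantile normalization or without a variance trend. It was 3 by voom on recovered reads and 3 with NTC 1 and NTC 3 left out. Leaving out 1 library gave 1 (without Gli2CA 2) to 4 (without NTC 2) such members, and 817 (without Gli2CA 1) to 2450 (without NTC 2) among all genes, against 1304. The median of all genes, 0.25, was -0.034 after quantile normalization and -0.10 with NTC 1 and NTC 3 left out. Storage and uptake minus oxidation, 0.55, was 0.23 without both, a fit that takes the spread of the lone NTC library from Gli2CA. The cause of these shifts was not tested.

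Changes of direction follow, as log2 differences. Lpl had 0.89 with a pseudocount of 0.1, 0.20 with library weights and 2.04 by voom on recovered reads. Hadhb had 0.027 with 1 FPKM sum per library, 0.046 with quantile normalization, 0.062 with library weights and 0.014 by voom. Eci1 had -0.0028 with library weights. Hadh and Ucp2 had -0.44 and -0.067 with quantile normalization, and Ucp2 -0.030 with library weights. Without both NTC 1 and NTC 3, Slc25a20 had 0.45, Acadm -0.32, Acaa2 -0.22, Decr1 -1.20, Dgat2 -0.54, Acsl3 -0.37, Acsl4 -0.18, Acsl5 -0.51, Cd36 0.19, Hadh -0.28, Angptl4 -0.50, Ucp2 -0.036 and Fasn -0.14. Leaving out 1 library gave ranges of -0.71 to 2.08 for Cpt1a, -0.099 to 2.55 for Cpt2, -0.56 to 0.24 for Slc25a20, -0.042 to 0.53 for Acadm, -0.64 to 0.039 for Hadha, -0.19 to 0.14 for Hadhb, -0.16 to 0.25 for Acaa2, -0.30 to 0.57 for Eci1, -0.66 to 1.67 for Decr1, -0.44 to 0.037 for Etfa and -0.51 to 0.19 for Etfdh. They were -1.56 to 0.84 for Lpl, -0.045 to 0.64 for Fabp5, -0.24 to 0.39 for Acsl5, -0.65 to 0.15 for Lipa, -0.55 to 1.05 for Hadh, -0.097 to 0.15 for Ucp2, -0.46 to 0.73 for Fasn and -0.21 to 0.81 for Scd2.

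With the replicate numbers of the titles as a block, 1088 of all genes and 3 members had an unadjusted p under 0.05. Deviations of same-numbered libraries from their group means correlated at -0.042, -0.0018 and -0.0066 across genes. With 3 libraries per group, these values cannot decide whether libraries were paired. The NTC descriptions are also numbered otherwise than the titles. Acsl3, Ppard and Pparg gave no value with a minimum mean of 5 FPKM. Low counts limit Ppard, Pparg, Fabp4 and the members near 0 in NTC 1.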
